A study of Mus musculus with 6 samples.

Results

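TBP, the TATA-binding protein, and the TBP-associated factors (TAFs) that form the general transcription factor TFIID with it were followed from myoblasts to myotubes. The genes were taken by symbol from a list of core promoter recognition factors and their paralogs that holds *Tbp*, *Tbpl1*, *Taf1*, *Taf3*, *Taf4b*, *Taf5*, *Taf7*, *Taf9b*, *Taf10* and *Taf12*, and all 10 were among the 54525 genes listed in each library. C2C12 is an established mouse myoblast line that fuses into multinucleated myotubes when serum is reduced, and it stands for one line in culture rather than for muscle tissue. Wild-type, untreated cells were compared as proliferating myoblasts on day 0 (D0, n = 3 libraries) and as myotubes on day 5 of differentiation in medium with horse serum (D5, n = 3 libraries). Total RNA was sequenced in bulk, and no allele, transgene or agent separated the groups. The medium did, because myoblasts were kept in growth medium with fetal bovine serum. Effects of the medium and of the day of differentiation cannot be told apart. In bulk RNA, fewer cells of a type and less RNA per cell cannot be told apart.

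TFIID is the first general transcription factor to recognize the promoters of RNA polymerase II. TBP bends the DNA at the core promoter, and the TAFs contact the sequences around the start site, modified histones and activators. Many TAFs pair through histone folds (TAF3 with TAF10, TAF4 or TAF4B with TAF12, TAF6 with TAF9 or TAF9B, TAF11 with TAF13), and several of them also serve in SAGA, a histone-modifying coactivator. TBP works outside TFIID as well, in the initiation factors of RNA polymerases I and III. In muscle, published work has differed on whether TFIID persists in myotubes or gives way to TAF3 with TRF3, the product of *Tbpl2*. The question addressed here is which of these transcripts differed in level between D0 and D5.

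The libraries held 36555048 to 40895840 gene counts at D0 and 25449759 to 25811300 at D5, so that myotubes were sequenced less deeply. Levels are given as CPM (counts per 1000000 counts, scaled by edgeR's TMM factors), and differences as log2 fold changes of D5 against D0, tested by the quasi-likelihood method of edgeR with p-values adjusted over 16290 genes. All 7 myotube markers, among them *Myog* and *Ckm*, were higher at D5 (log2 fold changes of 6.07 to 11.44), and all 3 myoblast markers were lower (*Myod1* by -0.71, *Pax7* by -1.71 and *Myf5* by -2.32). The 8 proliferation markers were lower as well, and their summed level was 2126–2149 CPM in myoblasts and 110.9–121.6 CPM in myotubes. Of the 6 endothelial and immune markers only *Kdr* and *Cd68* passed the filter on low counts, both were lower at D5, and the list summed to 5.51–6.07 CPM at D0 and 2.25–2.92 CPM at D5. *Adgre1* was at 0 in every library, and the 4 adipocyte markers together reached at most 1 count in a library. The part that the fall in proliferation has in the values below was not tested.

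Promoter sequences of RefSeq (GRCm38.p6) were found for 8 of the 10 genes. Each sequence is the 250 bases before the RefSeq start, read 5′ to 3′ on the strand of the gene. The promoters below belong to the gene that fell most (*Tbpl1*), to *Taf5* and *Taf3*, which also fell, and to *Taf12*, which rose. Capitals mark the GC box (GGGCGG), the ETS core (CCGGAAG) and the TATA box (TATAAA), each searched on both strands.
Tbpl1, chr10:22731448-22731697, minus strand: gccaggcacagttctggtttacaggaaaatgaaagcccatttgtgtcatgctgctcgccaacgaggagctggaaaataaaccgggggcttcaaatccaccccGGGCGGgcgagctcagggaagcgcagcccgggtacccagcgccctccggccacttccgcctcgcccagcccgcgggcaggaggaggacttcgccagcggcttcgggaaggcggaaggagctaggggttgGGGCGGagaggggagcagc
Taf5, chr19:47067498-47067747, plus strand: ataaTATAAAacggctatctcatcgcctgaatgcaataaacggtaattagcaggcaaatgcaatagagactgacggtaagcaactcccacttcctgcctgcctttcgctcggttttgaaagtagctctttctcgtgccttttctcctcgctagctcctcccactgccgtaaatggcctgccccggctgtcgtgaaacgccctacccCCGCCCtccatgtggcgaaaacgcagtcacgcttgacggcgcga
Taf3, chr2:10048610-10048859, minus strand: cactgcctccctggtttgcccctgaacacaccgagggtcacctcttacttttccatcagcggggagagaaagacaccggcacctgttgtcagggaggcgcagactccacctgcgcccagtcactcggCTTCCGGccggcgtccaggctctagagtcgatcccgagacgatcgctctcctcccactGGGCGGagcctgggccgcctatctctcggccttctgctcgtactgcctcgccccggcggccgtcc
Taf12, chr4:132274125-132274374, plus strand: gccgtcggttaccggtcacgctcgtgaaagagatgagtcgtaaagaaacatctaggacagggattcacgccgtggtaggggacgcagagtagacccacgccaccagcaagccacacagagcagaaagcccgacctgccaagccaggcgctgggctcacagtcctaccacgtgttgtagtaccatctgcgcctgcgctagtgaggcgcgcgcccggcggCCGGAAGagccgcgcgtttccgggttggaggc
The *Tbpl1* window held 2 GC boxes, whose first bases lay 148 and 19 bases before the RefSeq start. In the GENCODE annotation the gene spans chr10:22703879-22731938, so this window lies inside it and the distances hold for the RefSeq start alone. In *Taf5* the only TATAAA began 246 bases before the start, whereas TATA boxes act close to the start, and a GC box began 44 bases before it. *Taf3* had a GC box 65 bases and an ETS core 123 bases before its start, and its window lies within exons of *C630004M23Rik* on the opposite strand. *Taf12* had an ETS core 32 bases before the start and no GC box.

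GC boxes were found in 7 of the 8 genes with a promoter sequence, *Taf12* being the exception, and in 32.7% of all 32851 promoters of this length. A gene was counted if any of its promoters held the motif, whereas the percentages over all promoters count each promoter by itself. *Taf9b* alone had 5 of them in one of its 2 promoters, together with the CAGCTG type of E-box, which MyoD binds and which 13% of all promoters held. The ETS core was present in 2 of the 8 genes (6.91% of all promoters), the cyclic AMP response element TGACGT in *Taf10* alone (6.47%), and the CCAAT box in *Taf1* alone (33.8%). A TATAAA was present in *Taf5* alone (12.4% of all promoters). Neither form of the E2F site searched, TTTCCCGC (0.895% of all promoters) or TTTGGCGC (0.417%), was in any window of the 8 genes. GC content ran from 52% to 66.8% in these promoters against a median of 52.4% over all. A match is a run of letters and does not show that a factor binds there.

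All 10 genes passed the filter on low counts and all 10 were called different (edgeR, adjusted p under 0.05), in a comparison where 82.9% of all tested genes were. After TMM scaling 7 were lower at D5, against 40.8% of all genes, and 3 were higher, against 42.2%. With unscaled counts 8 were lower and 0 higher, beside 10953 lower and 3353 higher among the 16290 genes tested. When libraries were scaled by their ERCC spike-ins 2 were lower and 0 higher, beside 3747 lower and 1813 higher among all genes tested. In none of the 10 did the D0 and D5 libraries overlap. The 7 lower genes had every D5 library below every D0 library (41.1% of all genes) and the other 3 had every D5 library above (42.2%). With so many genes called, these counts describe the genes and do not set them apart from the rest.

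**Figure D1:**
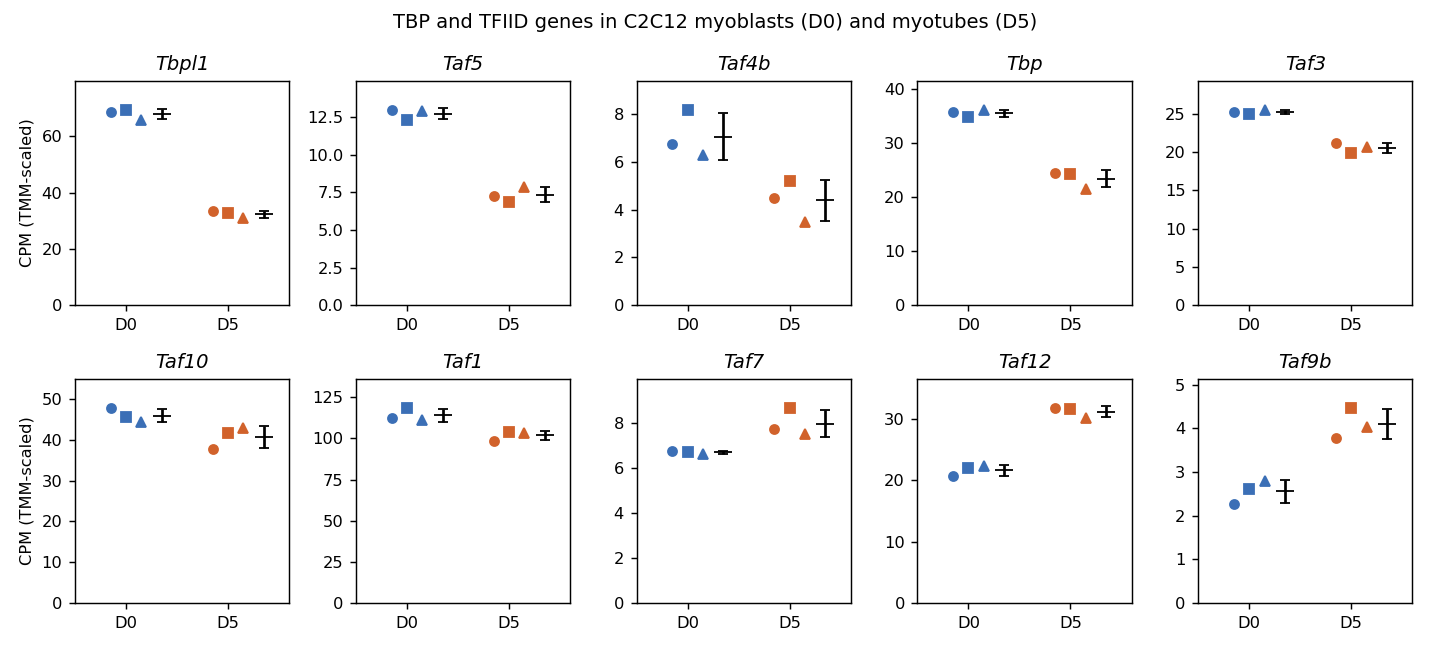
Level of each gene (y axis, CPM after TMM scaling, from 0) in myoblasts (D0) and myotubes (D5). Circles, squares and triangles are replicates 1, 2 and 3, and the black bar is the mean ± SD (n = 3). The groups are separate in all 10 panels, with D5 lower in 7 and higher in *Taf7*, *Taf12* and *Taf9b*, a direction that turned for these 3 without scaling.

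The sizes differed widely. The log2 fold changes ran from -1.07 (*Tbpl1*) to 0.67 (*Taf9b*) with a median of -0.23, while the median over all tested genes was 0.0022 and their quartiles were -0.63 and 0.71. Only *Tbpl1*, *Taf5* and *Taf4b* lay below the lower quartile, and none of the 10 lay above the upper one. *Taf1* and *Taf10* were nearest to no change, at 89.4% and 88.8% of their D0 levels.

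**Figure D2:**
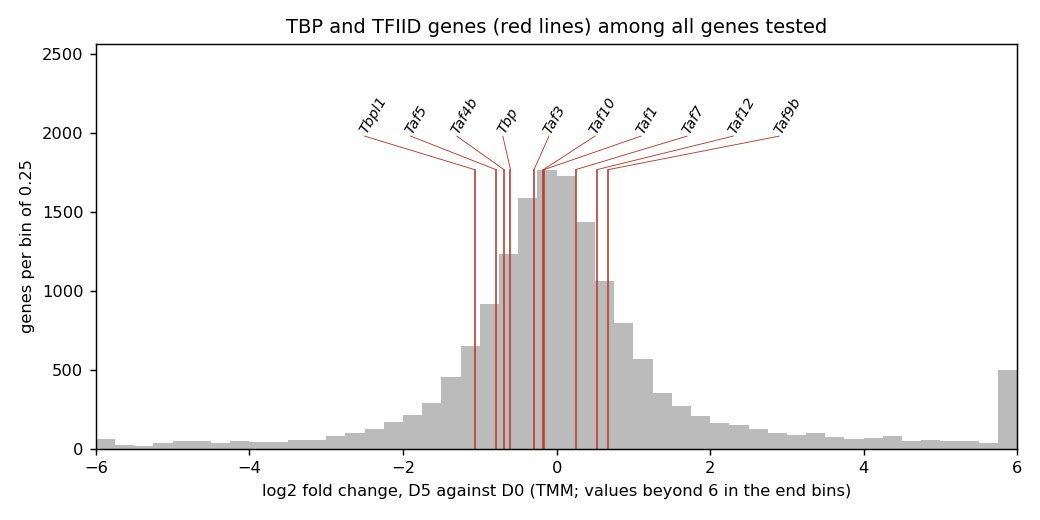
Distribution of log2 fold changes (x axis, D5 against D0 after TMM scaling) over the 16290 genes tested, as the number of genes per bin (y axis), with red lines at the 10 TBP and TFIID genes. All 10 lines fall between -1.07 and 0.67, in the central part of the distribution.

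*Tbp* itself (chr17:15499888-15528379, GRCm38, plus strand) was at 35.7, 34.8 and 36.0 CPM in D0 replicates 1, 2 and 3 and at 24.5, 24.2 and 21.5 CPM in D5 replicates 1, 2 and 3. The myoblast libraries lay close together, and the lowest of them was well above the highest myotube library. The level fell from 35.5 ± 0.647 to 23.4 ± 1.62 CPM (mean ± SD over 3 libraries per group), and the log2 fold change was -0.60 ± 0.052 (SE, edgeR adjusted p = 7.9e-12). Of its exonic length, 19.0% also belongs to exons of *Pdcd2* on the opposite strand, whose own log2 fold change was 0.06 (edgeR adjusted p = 0.392). Since the strand setting of the counting is not stated, reads in that stretch cannot be assigned to either gene.

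*Tbpl1* (chr10:22703879-22731938, minus strand) encodes TRF2, a TBP paralog that does not bind the TATA box and is required for spermatid maturation. It stood at 68.4, 69.2 and 65.7 CPM in the myoblast libraries and at 33.3, 32.7 and 31.0 CPM in the myotube libraries. Every D5 value was below every D0 value by a wide gap, and the spread within each group was small. This was the largest fall among the 10, to 47.7% of the D0 level, with a log2 fold change of -1.07 ± 0.044 (SE, edgeR adjusted p = 7.8e-20). Even so, 14.7% of all tested genes had a lower log2 fold change. *Slc2a12*, which shares 12.4% of the exonic length of *Tbpl1* on the opposite strand, had at most 3 counts in any library.

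The remaining member of the family, *Tbpl2*, which encodes TRF3, was nearly absent. It had 1 count in D0 replicate 1 and 0 in the other libraries, so that no fold is given, and a count of 0 at this depth allows up to 3 counts in a library. These libraries therefore held no detectable *Tbpl2* transcript at either time point.

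*Taf1* (chrX:101532734-101601789, plus strand) encodes the largest subunit, the scaffold that carries tandem bromodomains. Its levels were 112.3, 118.5 and 111.3 CPM at D0 and 98.6, 103.9 and 103.2 CPM at D5. The groups did not overlap, and the gap between the lowest myoblast and the highest myotube library was narrower than in *Tbp* or *Tbpl1*. The log2 fold change was -0.16 ± 0.036 (SE, edgeR adjusted p = 0.000168).

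*Taf7* (chr18:37640491-37644204, minus strand) encodes the subunit that binds TAF1 and restrains its acetyltransferase activity. It was at 6.78, 6.71 and 6.66 CPM in myoblasts and 7.76, 8.68 and 7.52 CPM in myotubes. The D0 libraries were almost equal, and D5 replicate 2 stood above the other myotube libraries. The log2 fold change was 0.25 ± 0.089 (SE, edgeR adjusted p = 0.0115), and without D5 replicate 2 it was 0.19 and no longer passed (edgeR adjusted p = 0.0784). The call was also lost with total counts (0.17) and without a filter on low counts (0.20), and the sign turned with unscaled counts (-0.43) and with ERCC scaling (-0.29).

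*Taf3* (chr2:9914552-10048596, minus strand) encodes the subunit whose PHD finger reads the trimethylated histone mark of active promoters. It was measured at 25.2, 25 and 25.5 CPM in D0 replicates 1, 2 and 3 and at 21.2, 19.8 and 20.7 CPM in D5 replicates 1, 2 and 3. All myotube libraries were lower than all myoblast libraries, and both groups were tight. The mean fell from 25.2 ± 0.241 to 20.6 ± 0.693 CPM (SD, n = 3 each), to 81.6% of the D0 level, with a log2 fold change of -0.29 ± 0.053 (SE, edgeR adjusted p = 9.3e-06). It ranged from -0.31 to -0.26 when each library was left out in turn, and 37.2% of all tested genes had a lower value. Of its exonic length, 7.65% is shared with genes on the opposite strand.

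*Taf10* (chr7:105739393-105744361, minus strand), which encodes the histone-fold partner of TAF3 and of TAF8 and is also part of SAGA, gave 47.8, 45.6 and 44.5 CPM at D0 and 37.7, 41.6 and 42.9 CPM at D5. The groups were separate by a narrow margin, with D5 replicate 1 the lowest. The log2 fold change was -0.17 ± 0.048 (SE, edgeR adjusted p = 0.00176). This value is uncertain, because 45.9% of the exonic length of *Taf10* overlaps *Ilk* on the opposite strand, and *Ilk* went from 242.5 to 109.4 CPM with a log2 fold change of -1.15 (edgeR adjusted p = 1.3e-23). The share of *Taf10* counts that came from *Ilk* was not tested.

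*Taf5* (chr19:47067746-47083479, plus strand) encodes the WD40 subunit at the centre of the TFIID core. Its levels were 13.0, 12.3 and 12.9 CPM in myoblasts and 7.29, 6.90 and 7.88 CPM in myotubes. The groups were far apart, and among the 10 genes *Taf5* and *Tbpl1* were the 2 that passed the test as lower under every scaling tried. The log2 fold change was -0.79 ± 0.078 (SE, edgeR adjusted p = 1.4e-10), to 57.7% of the D0 level.

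*Taf4b* (chr18:14783245-14900359, plus strand) encodes the TAF4 paralog known from ovary and the male germ line. It was read at 6.73, 8.16 and 6.28 CPM at D0 and 4.50, 5.19 and 3.50 CPM at D5. D0 replicate 2 was high and D5 replicate 3 low, so that both groups were loose, though they did not overlap. The log2 fold change of -0.69 ± 0.12 (SE, edgeR adjusted p = 8.7e-06) ranged from -0.82 to -0.54 when each library was left out.

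*Taf12* (chr4:132274375-132295766, plus strand), which encodes the histone-fold partner of TAF4 and TAF4B and is shared with SAGA, moved the other way. Its levels were 20.6, 22.0 and 22.3 CPM at D0 and 31.8, 31.7 and 30.2 CPM at D5. Every myotube library was above every myoblast library, with a wide gap. The mean went from 21.6 ± 0.879 to 31.2 ± 0.906 CPM (SD, n = 3 each), 144% of the D0 level, and the log2 fold change was 0.53 ± 0.051 (SE, edgeR adjusted p = 1.1e-10), though -0.16 with unscaled counts and -0.03 with ERCC scaling, neither of which passed the test.

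*Taf9b* (chrX:106206883-106221158, minus strand) encodes the TAF9 paralog that pairs with TAF6. It was the least abundant of the 10 in mean CPM at D0 and at D5. It had 85, 110 and 112 counts (2.27, 2.62 and 2.78 CPM) at D0 and 95, 110 and 100 counts (3.78, 4.46 and 4.02 CPM) at D5. In D5 replicate 3 *Taf4b* was lower (3.50 CPM). The raw counts of the groups overlap, and only after scaling for depth were the myotube libraries all higher. The log2 fold change was 0.67 ± 0.13 (SE, edgeR adjusted p = 4.2e-05), but -0.0094 with unscaled counts and 0.12 with ERCC scaling, without a call in either.

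The 3 rises depend on the scaling of the libraries. The 7 falls kept their sign under every scaling, but the scalings that moved the values most shifted them all downward. They therefore could not test whether a fall would turn, and unscaled counts also carry the lower depth of the D5 libraries. The median log2 fold change of all tested genes was -0.68 with unscaled counts, -0.58 with ERCC scaling and -0.08 with total counts. Read relative to that median, *Taf12* was 0.52 above it with unscaled counts and 0.55 above it with ERCC scaling. A scaling multiplies all genes of a library by the same factor, so such relative values could hardly move and are no test. With ERCC scaling *Tbp* (-1.14, edgeR adjusted p = 0.0764), *Taf4b* (-1.17, 0.0739), *Taf3* (-0.87, 0.188), *Taf10* (-0.74, 0.272) and *Taf1* (-0.72, 0.281) no longer passed. *Tbpl1* was at -1.07 and -1.04 relative to the median, and *Taf3* at -0.30 under both. The spike-ins took 0.720% to 2.09% of all counts, and the range came from the D5 libraries, where replicate 3 had the highest share and replicate 2 the lowest.

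**Figure D3:**
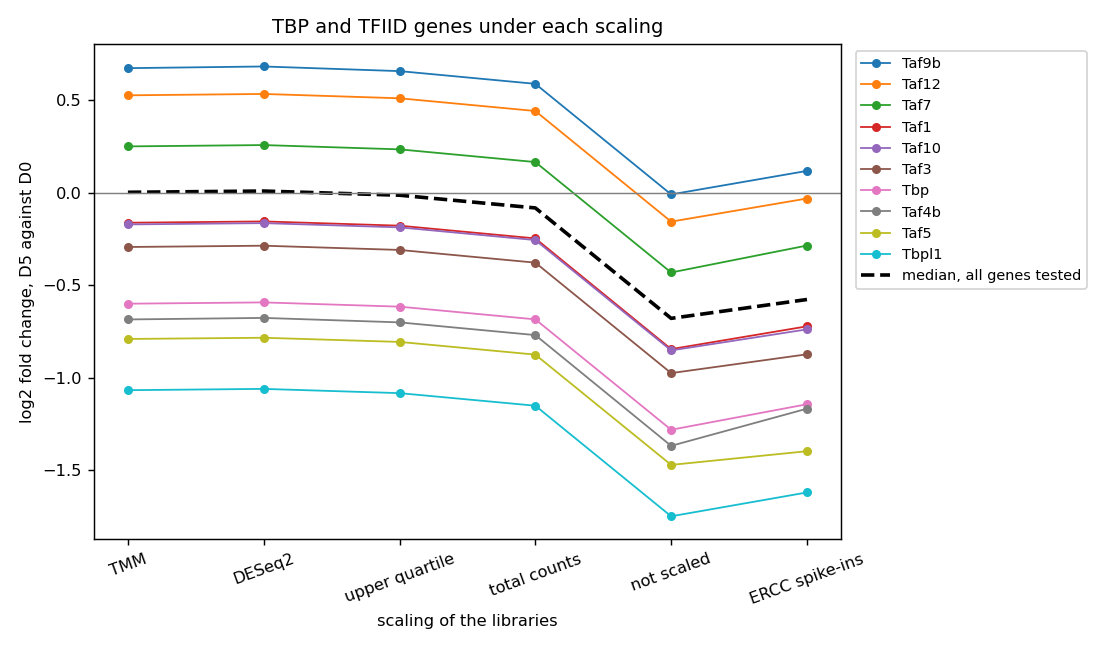
Log2 fold change of each of the 10 genes (y axis, D5 against D0) under 6 scalings of the libraries (x axis), with the median of all tested genes as a dashed line. A scaling multiplies all genes of a library by the same factor, so the genes move in parallel with the median. *Taf7*, *Taf12* and *Taf9b* are above 0 with TMM, DESeq2, upper-quartile and total-count scaling. All 10 are below 0 with unscaled counts, and *Taf9b* alone is above 0 with ERCC spike-ins.

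To compare levels between genes, TPM (transcripts per 1000000 transcripts, from the length of all exons of a gene) were computed. At D0 the order of mean TPM was *Tbpl1* (71.6), *Taf1* (46.1), *Taf10* (34.6), *Taf12* (18.5), *Taf3* (13.7), *Taf5* (13.5), *Tbp* (9.04), *Taf7* (7.03), *Taf4b* (4.74) and *Taf9b* (2.80). The ranges of neighbours were separate except for *Taf3* and *Taf5*. At D5 the order in mean TPM was *Taf1* (36.9), *Tbpl1* (30.7), *Taf10* (27.6), *Taf12* (24.0), *Taf3* (9.99), *Taf7* (7.497), *Taf5* (6.995), *Tbp* (5.35), *Taf9b* (4.01) and *Taf4b* (2.65), and only the ranges of *Taf7* and *Taf5* overlapped. The order depends on the length used. The annotated exons of *Tbp* add up to 13576 bases while the median of its transcripts is 791.5 bases, and with the median transcript length its mean TPM was 51.6 at D0, in place 3, and 31.5 at D5, in place 4. With that length *Tbpl1* (88.95 TPM) was still first at D0, but at D5 *Taf10* (67.95 TPM) and *Taf12* (42.8 TPM) stood above it (39.4 TPM), and *Taf1* was in place 5 at both times (22.0 and 18.2 TPM).

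As a share of the summed TPM of the 19 TFIID genes and paralogs, *Tbpl1* took 18.5% ± 0.346 at D0 and 10.4% ± 0.343 at D5 (SD, n = 3 each). The share of *Taf12* went from 4.79% ± 0.193 to 8.09% ± 0.186. Shares of *Taf3* (3.53% and 3.37%), *Taf1* (11.9% and 12.5%) and *Taf10* (8.97% and 9.32%) overlapped between the groups, though the *Taf10* share may include reads of *Ilk*. The size of a share rests on the length used, and with median transcript lengths *Taf1* took 4.22% and 4.51% and *Taf10* 15.9% and 16.8%. A share does not depend on how the libraries are scaled, though it moves with the other genes in the sum.

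Ratios within a library are likewise free of the scaling. The ratio of *Tbpl1* to *Tbp* in TPM was 7.96, 8.26 and 7.57 in the D0 libraries and 5.65, 5.61 and 5.96 in the D5 libraries. All myotube ratios were below all myoblast ratios, a log2 difference of -0.47. The length given to *Tbp* sets the level of this ratio but not the difference. The ratio of *Taf3* to *Tbp* was 1.501, 1.528 and 1.503 at D0 and 1.842, 1.743 and 2.038 at D5, all higher, with a log2 difference of 0.31. For both ratios the two-sided exact permutation test gave p = 0.1 (adjusted p = 0.25 over 5 ratios), the smallest p that 3 libraries against 3 allow, so this design cannot bring a single ratio under the threshold. The ratios of *Taf3* to *Taf10* (log2 difference -0.12, exact permutation p = 0.3), *Taf4b* to *Taf4* (0.21, p = 0.3) and *Taf9b* to *Taf9* (1.72, p = 0.2) overlapped between the groups, and each had an adjusted p of 0.3. When each library was left out in turn, these log2 differences ran from -0.20 to -0.08, from 0.10 to 0.39 and from 1.26 to 2.37 respectively, so single libraries moved them widely, while *Tbpl1* to *Tbp* ran from -0.50 to -0.44 and *Taf3* to *Tbp* from 0.25 to 0.36. The ratio of *Taf9b* to *Taf9* rests on few *Taf9* counts, 10 to 26 at D0 and 3 to 12 at D5. That of *Taf3* to *Taf10* rests on a *Taf10* level that may include reads of *Ilk*.

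Further ratios were chosen after the values were seen and were given no test. *Taf12* to its partner *Taf4* was at 0.691, 0.691 and 0.712 at D0 and 2.05, 1.85 and 1.75 at D5, a log2 difference of 1.43. The ratio of *Taf12* to the other partner *Taf4b* differed by 1.22 on the log2 scale, and that of *Taf13* to *Taf11*, a histone-fold pair in which both rose after TMM scaling and *Taf11* turned to -0.31 with unscaled counts, by 0.55. Ratios of *Taf10* to *Taf8* overlapped, with a log2 difference of 0.04, but *Taf10* may include reads of *Ilk*.

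**Figure D4:**
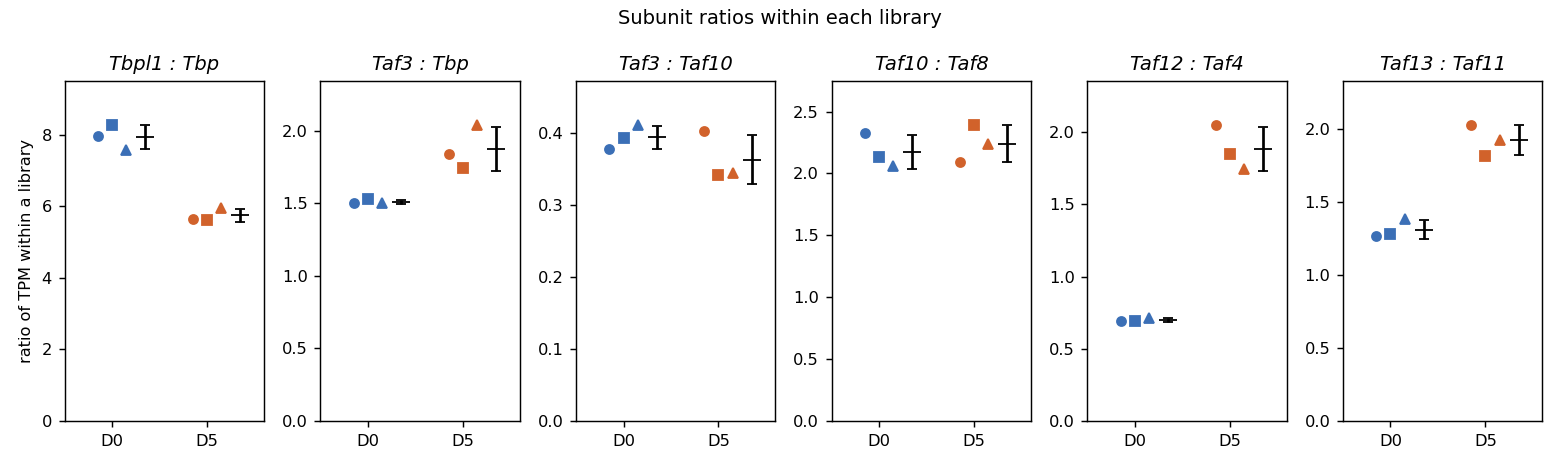
Ratio of the TPM of the named pairs within each library (y axis, no unit, from 0) at D0 and D5. Circles, squares and triangles are replicates 1, 2 and 3 and the black bar is the mean ± SD. *Taf12* to *Taf4* lies between 0.691 and 0.712 at D0 and between 1.75 and 2.05 at D5, while *Taf3* to *Taf10* and *Taf10* to *Taf8* overlap. Values of *Taf10* may include reads of *Ilk*, which overlaps it.

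Of the 9 other TFIID genes and paralogs, 7 were tested, of which 3 were lower, 2 higher and 2 without a call after TMM scaling (40.8% of all tested genes were lower and 42.2% higher). With unscaled counts 6 were lower and 1 higher, beside 10953 lower and 3353 higher among the 16290 genes tested. *Taf4*, the scaffold subunit, fell from 35.5 ± 1.16 to 19.0 ± 1.11 CPM (log2 fold change -0.90, edgeR adjusted p = 9.4e-16), next to *Taf2* (-0.42), which contacts the initiator element, and *Taf8* (-0.22). *Taf13* rose from 18.3 ± 0.292 to 34.7 ± 1.91 CPM (0.92, edgeR adjusted p = 3.2e-16), the largest rise among all 17 TFIID genes tested. Its log2 fold change was 0.24 with unscaled counts and 0.35 without a call (edgeR adjusted p = 0.624) with ERCC scaling. *Taf11*, its partner, had 0.37 after TMM scaling and -0.31 with unscaled counts. *Taf6* did not pass the test, with a log2 fold change of -0.05 and a 95% interval from -0.15 to 0.05.

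*Taf9* had only 20, 10 and 26 counts at D0 and 12, 3 and 4 at D5, with a log2 fold change of -0.87 (edgeR adjusted p = 0.0696). Of its exonic length, 73.8% is shared on the same strand with *Ak6*, so that reads may have been left unassigned, and its level is not comparable with those of other subunits. The testis paralog *Taf7l* had at most 3 counts in any library. *Taf15*, named after its values were seen, is an RNA-binding protein found with a part of TFIID, and it went from 123.0 to 56.7 CPM (log2 fold change -1.12, edgeR adjusted p = 6.2e-21), beside -1.07 for *Tbpl1*.

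**Figure D5:**
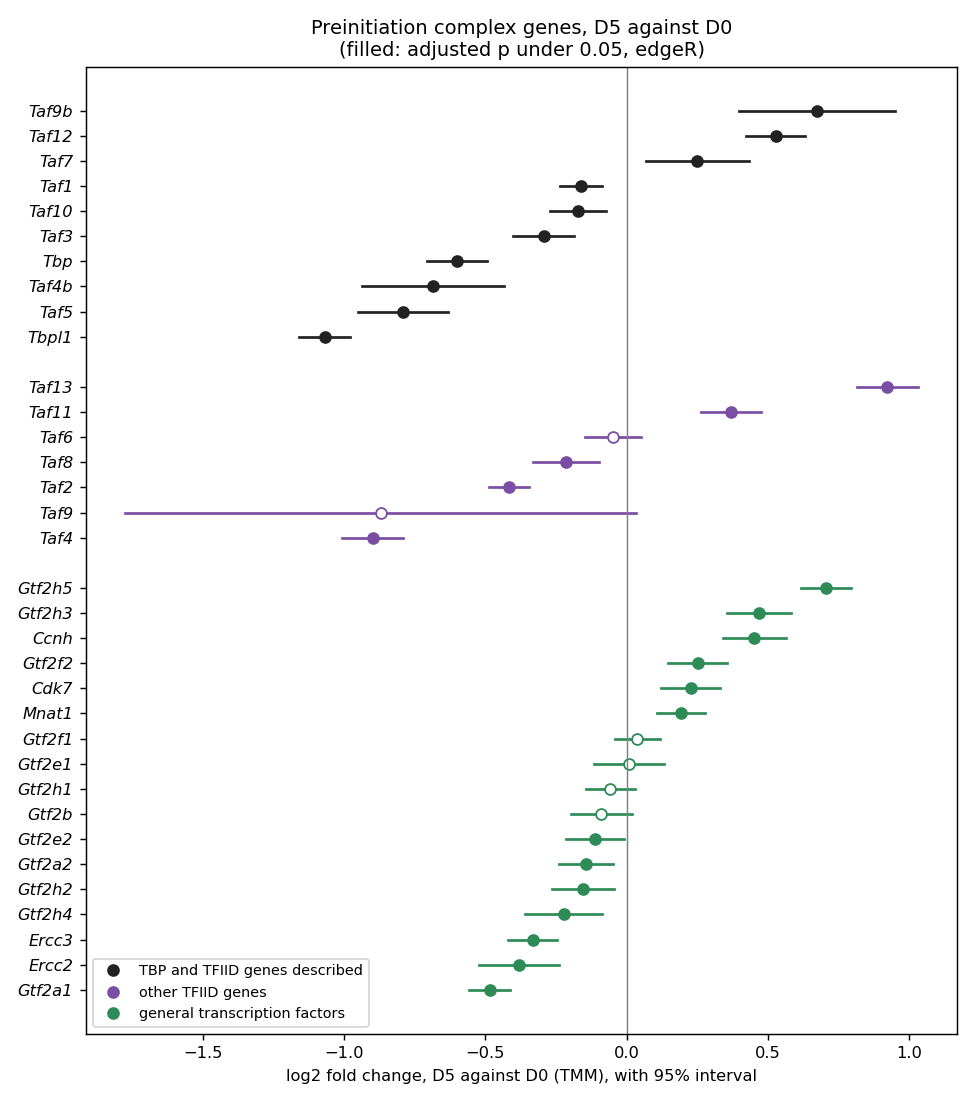
Log2 fold change after TMM scaling (x axis, D5 against D0) with its 95% interval for the 10 TBP and TFIID genes, the 7 other TFIID genes tested and the 17 general transcription factors (y axis, one gene per line). Filled points passed the test (edgeR, adjusted p under 0.05), and values run from -1.07 (*Tbpl1*) to 0.92 (*Taf13*). With unscaled counts all values lie lower by about the shift of the median, -0.68.

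Next to TFIID, the other general transcription factors bind the promoter with the polymerase. Of 17 genes of TFIIA, TFIIB, TFIIE, TFIIF and TFIIH, 7 were lower, 6 higher and 4 without a call (*Gtf2b*, *Gtf2e1*, *Gtf2f1* and *Gtf2h1*). Their median log2 fold change was -0.06, and the shares were no higher than about the 40.8% lower and 42.2% higher of all tested genes. With unscaled counts 16 were lower, beside 10953 of the 16290 genes tested. None passed with ERCC scaling, where 3747 of all tested genes were lower and 1813 higher. The largest differences were those of *Gtf2h5* (0.70), a small TFIIH subunit, *Gtf2a1* (-0.48), the large subunit of TFIIA, and *Gtf2h3* (0.47), another TFIIH subunit, which turned to -0.21 with unscaled counts.

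Among 16 subunits of SAGA, which shares TAFs such as TAF10 and TAF12 with TFIID, 13 were lower, 1 was higher (*Supt7l*, 0.19, but -0.49 with unscaled counts) and 2 had no call (*Supt3* and *Atxn7l3*). The median log2 fold change was -0.45, and over all tested genes 40.8% were lower and 42.2% higher. With unscaled counts 16 were lower, beside 10953 of the 16290 genes tested. With ERCC scaling 2 were lower, beside 3747 of the genes tested. The largest differences belonged to the core subunit *Supt20* (-0.92), the deubiquitinase *Usp22* (-0.82) and the activator-binding scaffold *Trrap* (-0.67). The acetyltransferases *Kat2a* (-0.54) and *Kat2b* (-0.58) were among the lower genes.

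Of 10 other partners of TBP, 3 were lower, 2 higher and 5 without a call, beside 40.8% lower and 42.2% higher over all tested genes. All 10 were lower with unscaled counts, beside 10953 of the 16290 genes tested. *Taf1d*, a subunit of the RNA polymerase I factor SL1, had the largest difference (-1.59), and 13.6% of its exonic length is shared with other genes, small nucleolar RNAs among them. *Btaf1*, the ATPase that removes TBP from DNA, was lower (-0.67), and *Brf1*, of the RNA polymerase III factor TFIIIB, had 0.34 after TMM scaling and -0.34 with unscaled counts.

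The genes whose log2 CPM followed *Taf3* most closely over the 6 libraries, among 9402 genes with a mean of at least 10 CPM, were *Prpsap1* (Pearson's r = 0.99986), the pseudogene *Rps2-ps10* (0.99946) and *Ccnk* (0.99944). As a description over 6 libraries that fall into 2 groups this measure is weak, since 3103 of the 9402 genes had r above 0.95.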

How the data were processed

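Total RNA of the 6 samples was sequenced by the authors, aligned to GRCm38 and counted on genes with featureCounts. The deposited values are raw read counts per gene without normalization, one table per library. The labels name Tophat2 and NGS-QC-Toolkit and the methods of the study name HISAT2 and FastQC, so the aligner behind these counts remains unknown. DESeq2 1.6.3 is also named in the submitters' processing notes. The annotation release and the strand setting are not given in the sources used here, and reads of overlapping or antisense genes may be mixed.

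A row without a gene name, equal to the total of its column, and the 92 ERCC spike-in rows (0.720% to 2.09% of the counts) entered neither library sizes nor tests. After filterByExpr, edgeR 4.0.16 (R 4.3.3) gave TMM factors, CPM and the quasi-likelihood test without covariates, with Benjamini-Hochberg adjustment over 16290 genes, with a threshold of 0.05. The chi-square per degree of freedom of replicate pairs was 2.28 to 3.71, above sampling noise, and each library counted as 1 sample. Whether the libraries came from independent cultures is not stated, so p-values measure the spread between these libraries. Genes at or under 3 counts in a library count as not detected there, a limit for counting error alone. Positions, exonic lengths and overlaps came from GENCODE for GRCm38, in which 97.8% of the 54525 gene rows were found by identifier and version. Ratios were compared by an exact permutation test over libraries.

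The genes and lists were chosen with earlier results of these data known. The genes named are the 10 genes, the other TFIID genes, the 3 genes with the largest absolute log2 fold change among those past the threshold in each further list, the markers and the 3 genes most like *Taf3*, and the others named after their values were seen are *Taf15*, *Ak6*, *Ilk*, *Pdcd2*, *Slc2a12*, *Kat2a*, *Kat2b*, genes without a call, *Supt7l* and *C630004M23Rik*. Alternatives were DESeq2 1.42.0, upper-quartile, total-count, ERCC and no scaling, no filter, at least 10 counts in every library, leaving out each library and the replicate number as a block. The edgeR and DESeq2 tests, but not the ratios, shares or motif searches, were run on simulated counts. Few genes changed there, whereas 82.9% of the tested genes were called here, so scaling under such wide change was not tested.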

Additional observations from a re-analysis of the deposited data

How the results depend on the processing

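With TMM scaling 6641 of the 16290 genes tested were lower and 6869 higher at D5, or 49.2% lower among the calls. Total counts gave 7253 lower and 6283 higher, and no filter gave 7637 lower and 7637 higher among 29266 genes. Counts that were not scaled gave 10953 lower and 3353 higher (76.6% lower), and ERCC scaling gave 3747 and 1813 (67.4% lower). Among the 10 TBP and TFIID genes, 0 were higher with unscaled counts, and with ERCC scaling 2 were lower (*Tbpl1* and *Taf5*) and 0 higher. Of the other TFIID genes 5 were lower with total counts, 6 lower and 1 higher with unscaled counts, and 0 higher with ERCC scaling. The general transcription factors gave 16 lower and 0 higher with unscaled counts and 0 lower and 0 higher with ERCC scaling, where 1 was lower at an unadjusted p under 0.05. Of the SAGA subunits 0 were higher with total counts, unscaled counts and ERCC scaling, the last with 2 lower. The other TBP partners had 1 higher with total counts and without a filter, 10 lower and 0 higher with unscaled counts, and 1 lower and 0 higher with ERCC scaling. In edgeR's test the counts of 0 higher genes were also 0 at an unadjusted p under 0.05 in each of these lists under those scalings.

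Of all genes of the 5 lists, 16 turned sign with unscaled counts and 15 with ERCC scaling. Among the genes named by rule, the sign turned with unscaled counts for *Taf7* (-0.43), *Taf9b* (-0.0094), *Taf12* (-0.16), *Taf11* (-0.31), *Gtf2h3* (-0.21) and *Brf1* (-0.34), and with ERCC scaling for *Taf7* (-0.29), *Taf12* (-0.031), *Taf11* (-0.18), *Gtf2h3* (-0.11) and *Brf1* (-0.22). Of 363 values of these named genes under the alternatives, 326 kept their direction and their side of the threshold, 17 lost the call, 9 gained one and 11 turned sign. Leaving out each library gave 6513 to 6663 lower and 6723 to 6936 higher genes, 7 lower and 2 to 3 higher of the 10, 0 to 1 higher SAGA subunits (0 without D5 replicate 1, with 1 at an unadjusted p under 0.05) and 1 to 2 higher TBP partners (1 without D0 replicate 2, D0 replicate 3 or D5 replicate 3). *Taf9* gave no value with at least 10 counts in every library, ranged from -1.70 to -0.54 over the libraries left out, and passed the test without D0 replicate 2 and without D5 replicate 1. DESeq2 and upper-quartile normalization changed no call of the 10.

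With the replicate number as a block, 6664 genes were lower and 6894 higher, 7 and 3 of them among the 10. Deviations of libraries with the same number had r from 0.0277 to 0.0645 and of other pairs from -0.0435 to 0.0103, so each library correlated best with its own number, but every r was under 0.1 and the numbers were not taken as pairs. *Taf9* was the one TFIID gene whose call changed (-0.90, edgeR adjusted p = 0.0416).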
